A study of Mus musculus with 16 samples.

Results

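The surface ectoderm of the distal mouse forelimb was compared with the mesoderm beneath it at E12.5 (E for embryonic day), when the limb bud is a hand plate whose digits are being laid out. The comparison took 4 of the 16 RNA-seq libraries of the series, chosen by their labels: ectoderm replicates 1 and 2, and mesoderm replicates 1 and 2. All embryos were of strain B6, and the labels name no mutant allele and no treatment. Forelimb tips were digested in cold trypsin and the ectoderm was peeled off with forceps. Libraries were made from the polyadenylated RNA of either layer, with a kit that keeps strand information. An ectoderm and a mesoderm library with the same replicate number came from 1 batch of embryos, and the 2 replicates were purified with different versions of 1 column kit, per the labels. The sources used here do not give the number of embryos pooled in a batch. The other 12 libraries hold both layers at E9.5, E10.5 and E11.5, and served to estimate the spread and to set the E12.5 difference beside that of the earlier days.

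At this age the limb is covered by an early epidermis that makes keratins, desmosomes and a basement membrane, with a flat outer layer, the periderm. A thickened strip of it at the margin, the apical ectodermal ridge, sends FGF and WNT signals to the mesoderm. The mesoderm holds the mesenchyme from which cartilage, joints, tendons and dermis form, and it is crossed by vessels, blood, macrophages and nerves. Hox genes of the HoxA and HoxD clusters pattern the mesoderm along the limb, and retinoic acid, its synthesis enzymes and its CYP26 breakdown enzymes mark out the tissue between the digits.

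Total gene counts were 22979717 and 14623396 in ectoderm replicates 1 and 2, against 23210409 and 14646672 in mesoderm replicates 1 and 2. The other 12 libraries held 10005867 to 30438214 counts. Levels are given below in CPM, counts scaled to 1000000 per library, for replicate 1 and then replicate 2 of each layer, with library sizes scaled by TMM, and 1 count was worth 0.0436 to 0.0659 CPM in these 4 libraries. Markers matched the layer labels. The summed level of 26 genes of epithelial adhesion and identity was 4100 and 3564 CPM in ectoderm, against 816 and 520 CPM in mesoderm. In mesoderm most of that sum was a single gene, the cadherin gene Cdh3, with 685 and 438 CPM. The median of these 26 genes stood in mesoderm at 0.471% and 0.346% of its ectoderm level. The median limb mesenchyme transcription factor stood in ectoderm at 4.75% and 5.83% of its mesoderm level, so a small share of mesenchymal RNA in the ectoderm libraries cannot be told apart from low expression in ectodermal cells.

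Of 15501 genes with enough counts to be tested, 7080 (45.7%) differed between the layers: 3709 (23.9%) were higher in ectoderm and 3371 (21.7%) were lower, at an adjusted p under 0.05 in edgeR's quasi-likelihood test with each embryo batch as a block. These shares, 23.9% higher and 21.7% lower, are the background for every count of list members called at E12.5 below. A difference beyond a fold of 2 passed the same threshold for 1368 genes (8.83%) higher in ectoderm and 1384 (8.93%) lower. The median log2 difference, ectoderm minus mesoderm, of all tested genes was 0.04, and 5% of genes lay below −3.39 and 5% above 3.42. Without the replicate block 2054 genes were higher and 2045 lower. Of these 4099 genes (26.4% of those tested), 4090 were also called with the block, all in the same direction. With 1 batch of E12.5 left out, 4553 and 5207 genes were called. With the batch term and 1 library of E12.5 both left out, 2927 to 3329 were called. With the block, the p-values rest on how far the layer difference varied between embryo batches, 2 at each stage, pooled over the 4 stages. They also rest on other genes, because edgeR's test draws each gene's spread toward theirs. In bulk RNA a layer with fewer cells of a type and a layer whose cells hold less of that RNA cannot be told apart.

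**Figure D1:**
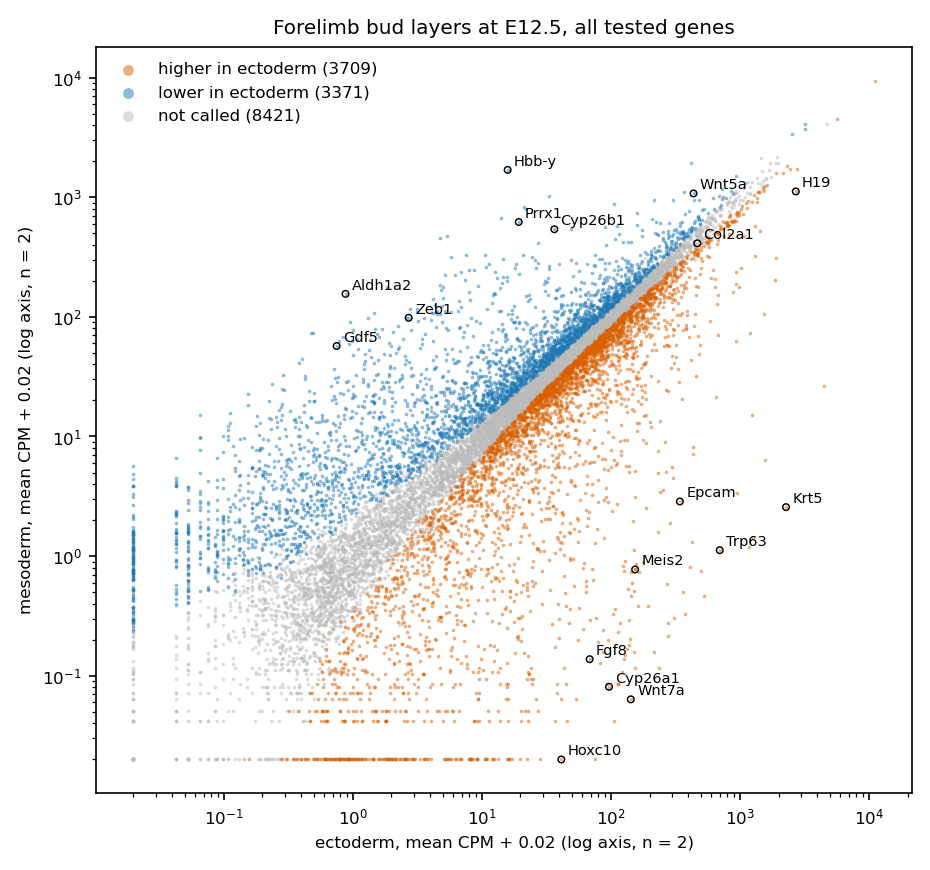
Mean CPM of every tested gene at E12.5 in ectoderm (horizontal log axis, n = 2 libraries) against mesoderm (vertical log axis, n = 2 libraries), with 0.02 added to each value. Orange points are the 3709 genes called higher in ectoderm, blue points the 3371 called lower and grey points the 8421 genes not called, and circled genes are named.

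Genes of epithelial cell adhesion were higher in ectoderm almost without exception. Of 26 listed genes, all of which were tested, 25 were higher in ectoderm and none was lower, and 24 of them passed the test beyond a fold of 2. The median log2 difference of the list was 7.44, or 7.36 with genes absent from a layer set at their lower bound, against 0.04 for all tested genes. Cdh1, the gene of E-cadherin, had 437 and 394 CPM in ectoderm, against 1.26 and 0.305 CPM in mesoderm. Both ectoderm libraries stood far above both mesoderm libraries, with a log2 difference of 8.96 ± 0.45 (SE, adjusted p = 1.14e-07). Epcam, an epithelial adhesion molecule, had 335 and 353 CPM in ectoderm, against 3.92 and 1.77 CPM in mesoderm, a log2 difference of 6.89 ± 0.31 (SE, adjusted p = 6.25e-08). Esrp1, a splicing regulator of epithelial cells, had 305 and 318 CPM in ectoderm, against 0.262 and 0.305 CPM in mesoderm, a log2 difference of 10.08 ± 0.42 (SE, adjusted p = 3.81e-08). The tight junction gene Cldn6 had 241 and 189.5 CPM in ectoderm, against 0.218 and 0.061 CPM in mesoderm, a log2 difference of 10.43 ± 0.48 (SE, adjusted p = 6.65e-08). Crb3, which helps set the apical side of epithelial cells, had 10.4 and 5.8 CPM in ectoderm, against 0 and 0 CPM in mesoderm and was at least 112-fold higher in ectoderm. Bounds and counting intervals cover counting error only, with a floor of 3 counts over the 2 libraries of a layer. The exception in the list was Cdh3, the gene of P-cadherin, with 713 and 708 CPM in ectoderm, against 685 and 438 CPM in mesoderm. Its layers did not overlap, but the log2 difference of 0.38 ± 0.17 (SE, adjusted p = 0.104) did not pass.

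Zeb1, Snai1 and Snai2 are repressors known to silence epithelial genes through E-boxes, and Zeb1 and Snai1 were lower in ectoderm. Zeb1 had 2.56 and 2.84 CPM in ectoderm, against 103 and 93.6 CPM in mesoderm, with no overlap, a log2 difference of −5.19 ± 0.51 (SE, adjusted p = 1.42e-05). Snai1 had 2.75 and 1.05 CPM in ectoderm, against 78 and 43.3 CPM in mesoderm, a log2 difference of −5.00 ± 0.68 (SE, adjusted p = 0.000158). Snai2 had 64 and 70.2 CPM in ectoderm, against 75.3 and 66.9 CPM in mesoderm, and its difference of −0.08 ± 0.11 (SE, adjusted p = 0.58) did not pass. Because these repressors are known to bind CAGGTG, that motif was looked for on both strands (its reverse complement reads CACCTG) in the 300 bases around RefSeq gene starts, from 250 before to 50 after, on GRCm38.p6. This search was chosen after the values were seen and describes letters in a window, not binding. Genes were not matched for base composition, and a role of the repressors was not tested. A window was found for 16 of the 26 epithelial genes, and 14 of the 16 genes (87.5%) held the motif in at least 1 window, against 21.4% of the 11259 tested genes with a window. Of all 32851 single windows of the table, 20.2% held it. Counted by gene, it was found for 37.3% of the 973 genes higher beyond a fold of 2, for 19.2% of the 971 lower beyond a fold of 2 and for 19.5% of the 5989 not called. It was found for 6 of 9 keratin genes with a window, 8 of 17 genes of the basement membrane list and 2 of 10 periderm genes. None of the 9 genes of the Hoxa list and 10 of the Hoxd list with a window held it. It was also found for 7 of 17 genes of retinoic acid and the interdigit, 6 of 19 cartilage genes and 2 of 7 joint genes. Of ridge genes 4 of 15 held it, of epidermal factors 3 of 11 and of mesenchyme factors 3 of 21. Spint1 and Cgn were the epithelial genes with a window and no match. The 3 windows below, of 2 genes with 4 matches and of Epcam with 2, are shown because they show how the copies are spaced, with each match in capitals and the gene's own strand read 5′ to 3′. The window of Crb3 is chr17:57061951-57062250 on the plus strand, around a start inside the gene's span. That of Ap1m2, an adaptor of epithelial protein sorting, is chr9:21312284-21312583 on the minus strand, and that of Epcam is chr17:87635729-87636028 on the plus strand.
Crb3: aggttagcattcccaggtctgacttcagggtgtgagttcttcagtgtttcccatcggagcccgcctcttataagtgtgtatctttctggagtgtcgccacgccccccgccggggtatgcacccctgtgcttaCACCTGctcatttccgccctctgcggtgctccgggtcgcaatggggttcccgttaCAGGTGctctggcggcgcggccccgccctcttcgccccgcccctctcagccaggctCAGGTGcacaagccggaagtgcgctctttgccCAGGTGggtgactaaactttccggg
Ap1m2: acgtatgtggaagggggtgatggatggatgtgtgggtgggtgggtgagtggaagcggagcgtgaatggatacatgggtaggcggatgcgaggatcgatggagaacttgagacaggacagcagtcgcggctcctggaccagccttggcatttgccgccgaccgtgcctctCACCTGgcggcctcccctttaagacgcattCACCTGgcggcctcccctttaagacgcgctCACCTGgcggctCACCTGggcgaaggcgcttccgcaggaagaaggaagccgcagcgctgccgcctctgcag
Epcam: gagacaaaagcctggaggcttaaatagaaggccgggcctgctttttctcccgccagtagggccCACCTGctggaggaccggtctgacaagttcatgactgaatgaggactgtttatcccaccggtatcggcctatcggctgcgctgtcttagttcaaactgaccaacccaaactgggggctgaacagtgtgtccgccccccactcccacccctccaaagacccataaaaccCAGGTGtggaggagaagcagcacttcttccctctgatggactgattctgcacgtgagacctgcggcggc
The first match of Crb3 reads CACCTG and its other 3 read CAGGTG, while all 4 matches of Ap1m2 read CACCTG. The first 2 matches of Ap1m2 each begin the same run of bases, CACCTGgcggcctcccctttaagacgc, so they are copies within a repeat. At the level of RNA, Ap1m2 had 91.3 and 74.1 CPM in ectoderm, against 0.218 and 0 CPM in mesoderm, with both ectoderm libraries far above both mesoderm libraries.

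The transcription factors of the epidermis followed the epithelial genes. Of 23 listed factors 21 were tested, 19 were higher in ectoderm and none was lower, with a median log2 difference of 5.24. Trp63, which is needed for a stratified epidermis, had 657 and 744 CPM in ectoderm, against 1.35 and 0.854 CPM in mesoderm, a log2 difference of 9.25 ± 0.32 (SE, adjusted p = 1.72e-08). Grhl2, a regulator of epithelial junctions, had 148 and 182 CPM in ectoderm, against 0.697 and 0.732 CPM in mesoderm, a log2 difference of 7.83 ± 0.37 (SE, adjusted p = 7.89e-08). Factors that act as the outer cells mature were also found in ectoderm. Ovol1 had 18.9 and 12.53 CPM in ectoderm, against 0 and 0 CPM in mesoderm, at least 214-fold higher in ectoderm, and Zfp750 had 51.2 and 40.3 CPM in ectoderm, against 0.0436 and 0 CPM in mesoderm, a ratio of ectoderm to mesoderm of 1838 (95% counting interval 329.5 to 72660). Tfap2b had 418 and 488 CPM in ectoderm, against 336 and 263 CPM in mesoderm, and Barx2 had 6.86 and 2.24 CPM in ectoderm, against 6.1 and 0.549 CPM in mesoderm. These were the tested factors of the list that did not pass, with adjusted p = 0.0619 and adjusted p = 0.195.

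Keratins of the basal epidermis reached high levels. Of 20 listed keratin genes 15 were tested, 13 were higher in ectoderm and none was lower, with a median log2 difference of 6.21, or 5.81 with zero groups at their bound. Krt5 (chromosome 15, 101707069 to 101712898, minus strand), the main type II keratin of basal cells, had 2982 and 1592 CPM in ectoderm, against 4.79 and 0.305 CPM in mesoderm. The ectoderm libraries differed from each other by less than they differed from mesoderm, with a log2 difference of 9.91 ± 0.57 (SE, adjusted p = 2.58e-07). Krt14, the partner of Krt5, had 1633 and 925 CPM in ectoderm, against 2.62 and 0.244 CPM in mesoderm, a log2 difference of 9.81 ± 0.51 (SE, adjusted p = 1.36e-07). Krt17 had 533 and 314 CPM in ectoderm, against 2.4 and 0.183 CPM in mesoderm, a log2 difference of 8.35 ± 0.46 (SE, adjusted p = 2.08e-07). Krt7 had 153 and 128 CPM in ectoderm, against 0.305 and 0.061 CPM in mesoderm, a log2 difference of 9.42 ± 0.34 (SE, adjusted p = 2.11e-08). The simple-epithelium keratins Krt8 and Krt18 were present at lower counts than these. Krt8 had 34.3 and 42.2 CPM in ectoderm, against 1.79 and 1.04 CPM in mesoderm. Krt18 had 56.9 and 55.6 CPM in ectoderm, against 1.52 and 1.04 CPM in mesoderm, a log2 difference of 5.42 ± 0.28 (SE, adjusted p = 1.4e-07). Krt15 had 118 and 19.8 CPM in ectoderm, against 0.305 and 0.244 CPM in mesoderm. Its 2 ectoderm libraries lay several-fold apart, and both stood above both mesoderm libraries (log2 difference 7.96 ± 0.38 (SE, adjusted p = 7.85e-08)). Krt6a, which is very like Krt6b and can share its reads, had 15.7 and 5.28 CPM in ectoderm, against 0 and 0 CPM in mesoderm and was at least 150.2-fold higher in ectoderm. Keratins of the upper, cornifying layers had few counts. Krt1 had 10.9 and 4.16 CPM in ectoderm, against 1 and 0.488 CPM in mesoderm, a log2 difference of 3.30 ± 0.36 (SE, adjusted p = 2.95e-05). Krt10, its partner, had 5.81 and 4.02 CPM in ectoderm, against 3.92 and 2.5 CPM in mesoderm, a difference of 0.62 ± 0.26 (SE, adjusted p = 0.0774) that did not pass.

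Of 22 genes of periderm and the cornified envelope, 13 were tested, 9 were higher in ectoderm and none was lower, with a median log2 difference of 5.90. Sfn, an adaptor protein of keratinocytes, had 479.6 and 269 CPM in ectoderm, against 0.436 and 0.183 CPM in mesoderm, a log2 difference of 10.19 ± 0.37 (SE, adjusted p = 2.13e-08). Perp, a membrane protein of desmosomes, had 591 and 462 CPM in ectoderm, against 0.828 and 0.061 CPM in mesoderm, a log2 difference of 10.07 ± 0.38 (SE, adjusted p = 2.18e-08). The plakin gene Ppl had 147 and 158 CPM in ectoderm, against 0.218 and 0.061 CPM in mesoderm, a log2 difference of 9.90 ± 0.33 (SE, adjusted p = 1.57e-08). Scel, the sciellin gene, had 29.5 and 16.5 CPM in ectoderm, against 0.0436 and 0 CPM in mesoderm, a ratio of 951 (95% counting interval 170.3 to 37610). Of the late barrier genes, Ivl had 0 and 0.0659 CPM in ectoderm, against 0.0436 and 0.061 CPM in mesoderm, and Sprr1a had 0.229 and 0 CPM in ectoderm, against 0 and 0 CPM in mesoderm, each at or near the floor of detection. Lor had 11.2 and 2.97 CPM in ectoderm, against 5.97 and 1.71 CPM in mesoderm, so it was detected in all 4 libraries, and its layers overlapped (adjusted p = 0.0989).

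The transcript 4631405K08Rik (chromosome 1, 193507237 to 193510174, minus strand), which lies at the locus of a microRNA of stratified epithelia, miR-205, had 5.99 and 12.4 CPM in ectoderm, against 0.0436 and 0 CPM in mesoderm, a ratio of 339 (95% counting interval 60.4 to 13430). H19, an imprinted RNA that carries miR-675, had 2339 and 3104 CPM in ectoderm, against 1002 and 1231 CPM in mesoderm, a log2 difference of 1.28 ± 0.11 (SE, adjusted p = 4.14e-06). In the other direction Dnm3os, which carries miR-199a and miR-214 of mesenchyme, had 0 and 2.37 CPM in ectoderm, against 5.8 and 54.6 CPM in mesoderm. Its replicates lay several-fold apart in both layers, and its difference of −4.87 ± 0.65 (SE, adjusted p = 0.000125) was not called without the replicate block (adjusted p = 0.148). Without mesoderm replicate 2 and the batch term it was −2.37, and without ectoderm replicate 2 no ectoderm count is left. Of 22 listed microRNA host transcripts 10 were tested, 2 were higher and 2 lower in ectoderm, beside 23.9% and 21.7% of all tested genes. The libraries measure these host RNAs and not the mature microRNAs. The mature sequences, from RefSeq on GRCm38.p6, are given because the 3 hosts carry different targeting sequences. The seed, bases 2 to 8, is in capitals, and no seed is shared among them.
miR-205-5p: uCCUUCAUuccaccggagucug
miR-205-3p: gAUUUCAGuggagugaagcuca
miR-675-5p: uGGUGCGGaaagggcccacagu
miR-675-3p: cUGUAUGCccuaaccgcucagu
miR-199a-5p: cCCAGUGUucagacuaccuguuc
miR-199a-3p: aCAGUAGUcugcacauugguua
miR-214-5p: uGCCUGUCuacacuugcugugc
miR-214-3p: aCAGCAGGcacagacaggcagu

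All 12 listed desmosome genes were tested and were higher in ectoderm, with a median log2 difference of 5.85, or 4.63 with zero groups at their bound. Dsp, the desmoplakin that ties keratins to the junction, had 1612 and 1554 CPM in ectoderm, against 8.46 and 4.21 CPM in mesoderm, a log2 difference of 7.98 ± 0.36 (SE, adjusted p = 5.89e-08). Pkp1 and Pkp3, plaque proteins, had log2 differences of 7.79 ± 0.45 (SE) and 7.11 ± 0.24 (SE). Dsg3, a desmosomal cadherin, had 39.1 and 42.6 CPM in ectoderm, against 0.0872 and 0 CPM in mesoderm, a ratio of 798 (95% counting interval 220.4 to 6592). Jup, the plakoglobin gene, is also used by other junctions and had 477 and 327 CPM in ectoderm, against 88.3 and 47.8 CPM in mesoderm, a log2 difference of 2.601 ± 0.18 (SE, adjusted p = 1.25e-06). Pkp2 had 6.31 and 6.07 CPM in ectoderm, against 4.4 and 2.32 CPM in mesoderm, and its call (adjusted p = 0.0461) was not made without the replicate block (adjusted p = 0.263).

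Of 25 tested genes that anchor the epidermis to its basement membrane, 23 were higher in ectoderm and 1 was lower. Beside these stood 23.9% and 21.7% of all tested genes. The median log2 difference of the list was 3.64. Col17a1, a collagen of the hemidesmosome, had 1261 and 1091 CPM in ectoderm, against 1.35 and 0.976 CPM in mesoderm, a log2 difference of 9.96 ± 0.23 (SE, adjusted p = 2.46e-09). Its integrin partner Itgb4 had 172 and 145 CPM in ectoderm, against 1.13 and 0.549 CPM in mesoderm, a log2 difference of 7.51 ± 0.24 (SE, adjusted p = 1.45e-08). Lamb3, a laminin chain of the epidermal basement membrane, had 122 and 106 CPM in ectoderm, against 0.131 and 0 CPM in mesoderm, a ratio of 1519 (95% counting interval 519 to 7367). Lama3 had 119.8 and 92.8 CPM in ectoderm, against 11.6 and 0.976 CPM in mesoderm, a log2 difference of 4.40 ± 0.48 (SE, adjusted p = 3.1e-05). The 2 mesoderm libraries of Lama3 were several-fold apart. Fras1 and Frem2, of the Fraser complex that holds skin to limb, had log2 differences of 4.92 ± 0.21 (SE) and 3.99 ± 0.31 (SE). Laminin chains of basement membranes in general were higher by less: Lamb1 had 943 and 933 CPM in ectoderm, against 284 and 192 CPM in mesoderm, and Lamc1 had 1099 and 962 CPM in ectoderm, against 309.5 and 203 CPM in mesoderm. Lama1 went the other way, with 15 and 19.8 CPM in ectoderm, against 45.9 and 39.5 CPM in mesoderm and no overlap, a log2 difference of −1.31 ± 0.19 (SE, adjusted p = 0.000204).

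**Figure D2:**
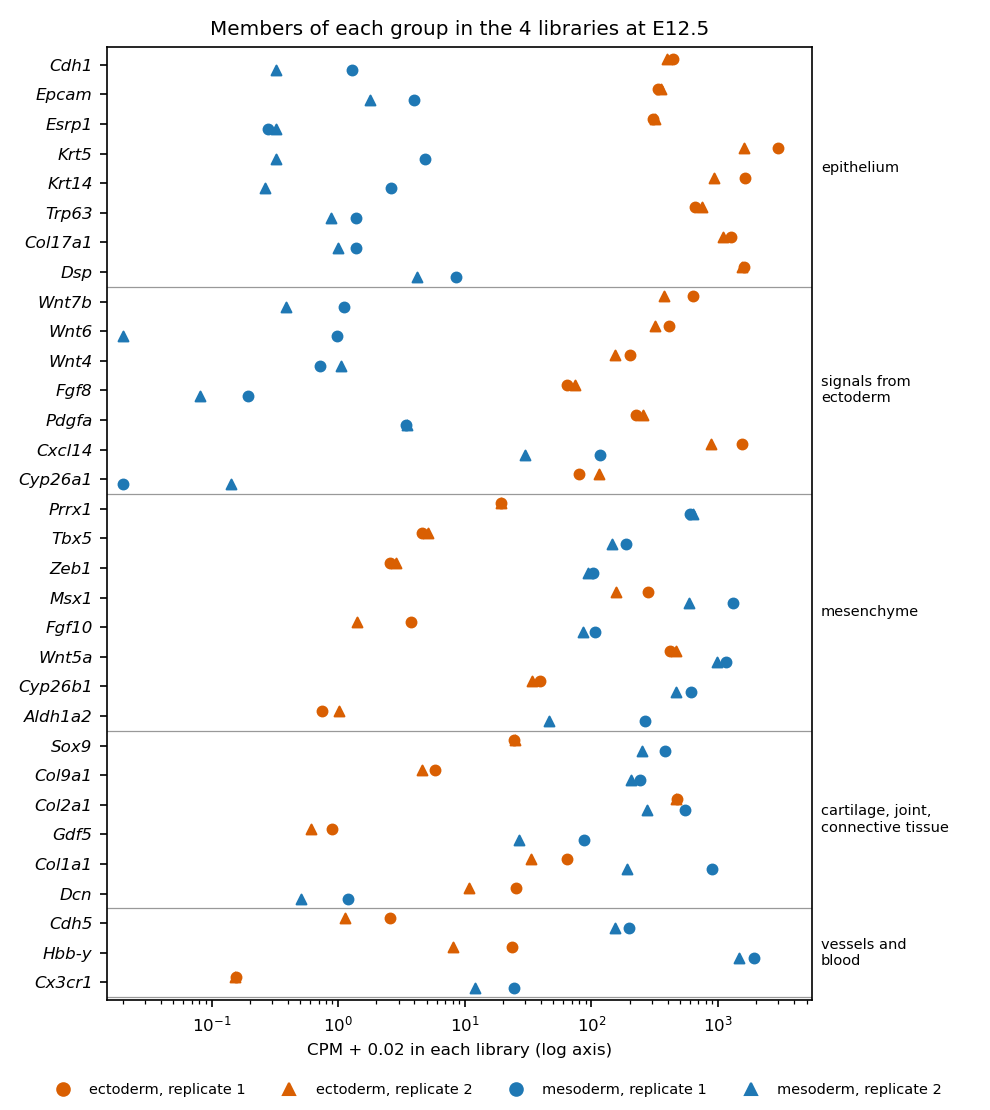
CPM plus 0.02 (horizontal log axis) of 32 named genes in each of the 4 E12.5 libraries, with ectoderm in orange above mesoderm in blue, circles for replicate 1 and triangles for replicate 2. Every listed epithelial and ectodermal signal gene lies to the right in ectoderm, the mesenchyme, vessel and blood genes lie to the right in mesoderm, and Col2a1 overlaps between the layers.

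Genes of the apical ectodermal ridge were mostly higher in ectoderm. Of 25 tested, 19 were higher and 3 lower, beside 23.9% and 21.7% of all tested genes. Their median log2 difference was 3.36. Fgf8, the main FGF of the ridge, had 63.6 and 73.9 CPM in ectoderm, against 0.174 and 0.061 CPM in mesoderm, a log2 difference of 8.99 ± 0.52 (SE, adjusted p = 3e-07). Fgf9 had 29.3 and 39.4 CPM in ectoderm, against 5.84 and 1.04 CPM in mesoderm, a log2 difference of 3.36 ± 0.56 (SE, adjusted p = 0.000626). Fgf17 had 4.76 and 2.77 CPM in ectoderm, against 0 and 0.061 CPM in mesoderm, a ratio of 155 (95% counting interval 27.4 to 6170), and Fgf4 had only 2.06 and 0.989 CPM in ectoderm, against 0.0436 and 0 CPM in mesoderm, a ratio of 63.8 (95% counting interval 11 to 2560) that was not called without the replicate block (adjusted p = 0.0824). Sp6 and Sp8, zinc finger factors that maintain the ridge, had 302 and 243 CPM in ectoderm, against 0.392 and 0.732 CPM in mesoderm for Sp6 and 129 and 159 CPM in ectoderm, against 0.218 and 0.671 CPM in mesoderm for Sp8. Rspo2, which strengthens WNT signalling in the ridge, had 64.5 and 81.3 CPM in ectoderm, against 0.741 and 0.488 CPM in mesoderm, a log2 difference of 6.81 ± 0.38 (SE, adjusted p = 2.45e-07). The Dlx homeobox pairs differed: Dlx1 had 119 and 149.5 CPM in ectoderm, against 0.174 and 0.122 CPM in mesoderm, a log2 difference of 9.69 ± 0.38 (SE, adjusted p = 2.7e-08). Dlx2 had 318 and 217 CPM in ectoderm, against 8.15 and 1.89 CPM in mesoderm, a log2 difference of 5.83 ± 0.35 (SE, adjusted p = 3.8e-07). Dlx5 had 79.1 and 69.8 CPM in ectoderm, against 89.2 and 74.9 CPM in mesoderm, a difference of −0.14 ± 0.15 (SE, adjusted p = 0.487) that did not pass, and its neighbour Dlx6 had 11.4 and 19.5 CPM in ectoderm, against 25.3 and 27.9 CPM in mesoderm, lower in ectoderm by −0.83 ± 0.26 (SE, adjusted p = 0.0228) but not called without the replicate block (adjusted p = 0.175). Bmp2, also a ridge gene in the young limb, had 17.8 and 10.4 CPM in ectoderm, against 61.1 and 44.3 CPM in mesoderm, a log2 difference of −1.92 ± 0.23 (SE, adjusted p = 6.08e-05). The retinol transporter gene Stra6 had 6.04 and 4.95 CPM in ectoderm, against 97.8 and 56.3 CPM in mesoderm, a log2 difference of −3.79 ± 0.23 (SE, adjusted p = 4.1e-07). Msx2 had 388 and 282 CPM in ectoderm, against 356 and 184 CPM in mesoderm and Sp9 had 60.5 and 41.9 CPM in ectoderm, against 39.3 and 23 CPM in mesoderm, neither of which passed (adjusted p = 0.237 and adjusted p = 0.0534).

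FGF ligands divided between the layers. Of 18 listed ligands 13 were tested, 7 were higher and 4 lower in ectoderm, beside 23.9% and 21.7% of all tested genes. Fgf10, the mesenchymal ligand that acts back on the ridge, had 3.75 and 1.39 CPM in ectoderm, against 107 and 86.4 CPM in mesoderm, a log2 difference of −5.23 ± 0.62 (SE, adjusted p = 5.51e-05). Fgf2 had 1.24 and 1.19 CPM in ectoderm, against 50.4 and 30.7 CPM in mesoderm, a log2 difference of −5.06 ± 0.53 (SE, adjusted p = 2.2e-05). Fgfr2, whose epithelial form receives Fgf10, had 433 and 454 CPM in ectoderm, against 83.4 and 83 CPM in mesoderm, and Fgfr1, the receptor of mesenchyme, had 77.9 and 103 CPM in ectoderm, against 302 and 265 CPM in mesoderm. The 2 receptors went in opposite directions, with log2 differences of 2.41 ± 0.28 (SE, adjusted p = 5.38e-05) for Fgfr2 and of −1.66 ± 0.16 (SE, adjusted p = 1.24e-05) for Fgfr1. Of the FGF feedback genes, Spry2 had 92.9 and 81.2 CPM in ectoderm, against 22.3 and 20.5 CPM in mesoderm, a log2 difference of 2.02 ± 0.11 (SE, adjusted p = 2.37e-07). Etv4 had 214 and 154 CPM in ectoderm, against 102 and 61.6 CPM in mesoderm, a log2 difference of 1.19 ± 0.13 (SE, adjusted p = 2.84e-05). Dusp6, a phosphatase induced by FGF, had 191 and 148 CPM in ectoderm, against 190.4 and 179 CPM in mesoderm, and its layers overlapped (adjusted p = 0.545). Of the 20 receptor and feedback genes tested 8 were higher and 4 lower, beside the same 23.9% and 21.7%.

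WNT ligands were mostly higher in ectoderm. Of 18 listed ligands 15 were tested, 10 were higher in ectoderm and 2 lower, beside 23.9% and 21.7% of all tested genes. Their median log2 difference was 8.86. Wnt7b had 639 and 372 CPM in ectoderm, against 1.09 and 0.366 CPM in mesoderm, a log2 difference of 9.40 ± 0.32 (SE, adjusted p = 1.57e-08). Wnt6 had 413 and 320.2 CPM in ectoderm, against 0.959 and 0 CPM in mesoderm, a log2 difference of 9.43 ± 0.50 (SE, adjusted p = 1.57e-07). Wnt4 had 200.5 and 154 CPM in ectoderm, against 0.697 and 1.04 CPM in mesoderm, a log2 difference of 7.71 ± 0.23 (SE, adjusted p = 1.07e-08). Wnt3, which is needed for the ridge, had 131 and 105 CPM in ectoderm, against 0.0872 and 0.427 CPM in mesoderm, a log2 difference of 8.97 ± 0.32 (SE, adjusted p = 1.91e-08). Wnt9b had a ratio of 591 (95% counting interval 202 to 2868), Wnt10b of 518 (95% counting interval 177 to 2514), Wnt10a of 541 (95% counting interval 149 to 4472) and Wnt3a of 593 (95% counting interval 106 to 23460). Wnt5a, which guides outgrowth, had 414 and 464 CPM in ectoderm, against 1166 and 985 CPM in mesoderm, a log2 difference of −1.29 ± 0.14 (SE, adjusted p = 2.79e-05). Wnt5b had 15.5 and 10.49 CPM in ectoderm, against 29.5 and 22.3 CPM in mesoderm, not called without the replicate block (adjusted p = 0.1).

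Receptors, antagonists and response genes of the pathway were split. Of 28 receptor and response genes 12 were higher and 9 lower in ectoderm, and of 21 tested antagonists and modulators 10 were higher and 9 lower. The shares of all tested genes were 23.9% higher and 21.7% lower. Fzd6, a frizzled receptor of skin, had 135 and 141 CPM in ectoderm, against 5.27 and 4.7 CPM in mesoderm, a log2 difference of 4.79 ± 0.20 (SE, adjusted p = 3.33e-08), while Fzd4 had 4.16 and 2.18 CPM in ectoderm, against 118 and 64.7 CPM in mesoderm, a log2 difference of −4.85 ± 0.34 (SE, adjusted p = 1.14e-06). Lgr6, an R-spondin receptor, had 67.6 and 44.2 CPM in ectoderm, against 0.174 and 0.183 CPM in mesoderm, a log2 difference of 8.28 ± 0.32 (SE, adjusted p = 2.4e-08). Rnf43 and Znrf3, which remove frizzled receptors from the membrane, were both higher in ectoderm by 4.85 ± 0.25 (SE) and 2.28 ± 0.14 (SE). The response genes Lef1 and Nkd2 were lower: Lef1 had 109 and 113 CPM in ectoderm, against 241 and 219 CPM in mesoderm, a log2 difference of −1.05 ± 0.17 (SE, adjusted p = 0.000528). Nkd2 had 14.7 and 13 CPM in ectoderm, against 178 and 171 CPM in mesoderm, a log2 difference of −3.65 ± 0.45 (SE, adjusted p = 6.88e-05). Axin2 had 104 and 116 CPM in ectoderm, against 161 and 158 CPM in mesoderm, and its difference of −0.54 ± 0.10 (SE, adjusted p = 0.00146) was not called without the replicate block (adjusted p = 0.344). Tcf7, of the same gene family as Lef1, was higher, with means of 82.95 CPM in ectoderm and 50.33 CPM in mesoderm. Its log2 difference of 0.712 ± 0.128 (SE, adjusted p = 0.00102) was also called without the replicate block (adjusted p = 0.0319). Among antagonists, Kremen2 had 149.9 and 129 CPM in ectoderm, against 0.305 and 0.244 CPM in mesoderm, a log2 difference of 8.94 ± 0.33 (SE, adjusted p = 2.13e-08). Sost had 43.4 and 85.3 CPM in ectoderm, against 0.349 and 0.854 CPM in mesoderm, a log2 difference of 6.75 ± 0.34 (SE, adjusted p = 1.21e-07). Wif1 went the other way with 30.3 and 8.9 CPM in ectoderm, against 351 and 105 CPM in mesoderm, a log2 difference of −3.54 ± 0.20 (SE, adjusted p = 2.32e-07), or −2.41 and not called without mesoderm replicate 1 and the batch term.

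In the BMP pathway 27 of 28 listed genes were tested, with a median log2 difference of −0.56. In ectoderm 6 were higher and 13 lower, beside 23.9% and 21.7% of all tested genes. Bmp7 had 206 and 208 CPM in ectoderm, against 71.4 and 68.4 CPM in mesoderm, a log2 difference of 1.57 ± 0.10 (SE, adjusted p = 4.61e-07). Bmp4 had 135 and 122 CPM in ectoderm, against 60.2 and 58.1 CPM in mesoderm, a log2 difference of 1.12 ± 0.14 (SE, adjusted p = 8.66e-05). Both ligands were thus higher in ectoderm while Bmp2 was lower. Among the genes lower in ectoderm were the extracellular antagonists Bmper, Chrdl1 and Nog. Bmper had 1.14 and 0.264 CPM in ectoderm, against 24.7 and 16.2 CPM in mesoderm, a log2 difference of −4.86 ± 0.38 (SE, adjusted p = 2.57e-06). Chrdl1 had 0.549 and 0.725 CPM in ectoderm, against 7.63 and 13.7 CPM in mesoderm, a log2 difference of −4.001 ± 0.28 (SE, adjusted p = 1.14e-06). Nog had 2.1 and 0.659 CPM in ectoderm, against 9.94 and 4.09 CPM in mesoderm, a log2 difference of −2.38 ± 0.34 (SE, adjusted p = 0.000195), or −1.54 and not called without mesoderm replicate 1 and the batch term. Msx1, a target of BMP signalling, had 279.8 and 157 CPM in ectoderm, against 1315 and 594 CPM in mesoderm, a log2 difference of −2.08 ± 0.17 (SE, adjusted p = 3.36e-06).

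Hedgehog pathway genes were lower in ectoderm in 8 of 16 cases and higher in 2, beside 21.7% and 23.9% of all tested genes. Without the replicate block 6 were lower and 0 higher. Shh itself had no count in ectoderm, which allows up to 0.081 CPM there, and 4 counts in all in mesoderm. Gli1, a target gene of the pathway, had 2.65 and 6.2 CPM in ectoderm, against 21.4 and 17 CPM in mesoderm, a log2 difference of −2.20 ± 0.30 (SE, adjusted p = 0.000144). Hhip, a target that binds the ligand, had 0.778 and 0.462 CPM in ectoderm, against 7.37 and 7.99 CPM in mesoderm, a log2 difference of −3.59 ± 0.37 (SE, adjusted p = 1.89e-05). Gli3 had 111 and 112 CPM in ectoderm, against 635 and 510.1 CPM in mesoderm, a log2 difference of −2.35 ± 0.18 (SE, adjusted p = 2.28e-06). Ptch1, the receptor and also a target, had 53 and 69.7 CPM in ectoderm, against 46.9 and 66.1 CPM in mesoderm, and its layers overlapped (adjusted p = 0.451).

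Of 18 tested Notch pathway genes 8 were higher and 7 lower in ectoderm, beside 23.9% and 21.7% of all tested genes. Both ligands and receptors were split between the layers. Jag2, a ligand of the ridge and epidermis, had 417 and 459.7 CPM in ectoderm, against 6.97 and 7.14 CPM in mesoderm, a log2 difference of 5.95 ± 0.21 (SE, adjusted p = 1.97e-08). Dll1 had 17.1 and 22.5 CPM in ectoderm, against 1.48 and 1.1 CPM in mesoderm, a log2 difference of 3.88 ± 0.28 (SE, adjusted p = 1.34e-06), while Dll4, a ligand of endothelium, had 0.0457 and 0.132 CPM in ectoderm, against 11.1 and 9.03 CPM in mesoderm, a ratio of mesoderm to ectoderm of 126 (95% counting interval 43 to 616). Notch1 had 254 and 317 CPM in ectoderm, against 51.9 and 62.3 CPM in mesoderm, a log2 difference of 2.32 ± 0.24 (SE, adjusted p = 2.26e-05). Notch4, a receptor of endothelium, had 1.46 and 1.05 CPM in ectoderm, against 25.8 and 17.5 CPM in mesoderm, a log2 difference of −4.09 ± 0.19 (SE, adjusted p = 7.89e-08). Targets in ectoderm included Heyl with 23.1 and 23.3 CPM in ectoderm, against 0.0436 and 0.122 CPM in mesoderm, a ratio of 304 (95% counting interval 104 to 1477), and Nrarp with 179 and 139 CPM in ectoderm, against 14.7 and 11.2 CPM in mesoderm, a log2 difference of 3.62 ± 0.14 (SE, adjusted p = 2.41e-08).

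Other ligand and receptor genes differed in both directions. The growth factor gene Pdgfa had 227 and 257 CPM in ectoderm, against 3.4 and 3.48 CPM in mesoderm, a log2 difference of 6.13 ± 0.25 (SE, adjusted p = 3.33e-08). Its receptor Pdgfra had 111 and 175 CPM in ectoderm, against 457 and 394 CPM in mesoderm, a log2 difference of −1.61 ± 0.24 (SE, adjusted p = 0.000266). The chemokine Cxcl14 had 1533 and 884 CPM in ectoderm, against 116 and 30.1 CPM in mesoderm, a log2 difference of 4.28 ± 0.33 (SE, adjusted p = 2.57e-06). Cxcl12 had 45.1 and 70.2 CPM in ectoderm, against 4.1 and 1.77 CPM in mesoderm, a log2 difference of 4.23 ± 0.39 (SE, adjusted p = 8.25e-06). The receptor Egfr had 191 and 199 CPM in ectoderm, against 0.479 and 0.244 CPM in mesoderm, a log2 difference of 8.97 ± 0.19 (SE, adjusted p = 2.24e-09), while its listed ligands Egf, Tgfa, Areg, Ereg, Btc and Hbegf had no more than 6.76 CPM in any of the 4 libraries. Kit had 20.6 and 18.7 CPM in ectoderm, against 45.8 and 50.4 CPM in mesoderm, a log2 difference of −1.29 ± 0.12 (SE, adjusted p = 1.33e-05). Its ligand Kitl had 22.9 and 27.8 CPM in ectoderm, against 22.7 and 18 CPM in mesoderm, which did not pass (adjusted p = 0.18). Of 52 listed genes of such pairs 47 were tested, 18 were higher and 15 lower in ectoderm, beside 23.9% and 21.7% of all tested genes.

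Genes of hair and gland placodes were mixed. Of 23 listed 22 were tested, 15 were higher and 5 lower, beside 23.9% and 21.7% of all tested genes. Without the replicate block 10 were higher and 4 lower. The median log2 difference of the list was 2.35, or 1.77 with zero groups at their bound. Edar, the ectodysplasin receptor that marks placodes, had 47.5 and 66.5 CPM in ectoderm, against 8.5 and 10.1 CPM in mesoderm, a log2 difference of 2.602 ± 0.21 (SE, adjusted p = 3.49e-06). Its ligand Eda had 12 and 8.77 CPM in ectoderm, against 6.62 and 5.79 CPM in mesoderm, not called without the replicate block (adjusted p = 0.0741). Tnfrsf19 had 374 and 299.8 CPM in ectoderm, against 22.1 and 34.4 CPM in mesoderm, a log2 difference of 3.60 ± 0.20 (SE, adjusted p = 2.58e-07). The placode signals Dkk4 and Fgf20 stayed at no more than 0.503 CPM in any of the 4 libraries.

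The dorsoventral genes were divided between the layers. Wnt7a (chromosome 6, 91363980 to 91411363, minus strand), the signal of dorsal ectoderm, had 188 and 97.9 CPM in ectoderm, against 0.0872 and 0 CPM in mesoderm, a ratio of 2977 (95% counting interval 824 to 24590). En1, the factor of ventral ectoderm, had 75.4 and 97.7 CPM in ectoderm, against 0.218 and 0.061 CPM in mesoderm, a log2 difference of 9.06 ± 0.40 (SE, adjusted p = 5.46e-08). Lmx1b, which Wnt7a induces in dorsal mesoderm, had 9.2 and 15 CPM in ectoderm, against 165 and 142 CPM in mesoderm, a log2 difference of −3.70 ± 0.35 (SE, adjusted p = 1.13e-05). Dorsal and ventral sides were not separated in these libraries.

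The Hoxc genes and most Hoxa and Hoxd genes lay on opposite sides of the border. All 9 Hoxc genes were higher in ectoderm, with a median log2 difference of 9.92, or 8.03 with zero groups at their bound. Hoxc13 (chromosome 15, 102921102 to 102928814, plus strand), a regulator of hair and nail keratins, had 124 and 104 CPM in ectoderm, against 0.131 and 0 CPM in mesoderm, a ratio of 1523 (95% counting interval 521 to 7389). Hoxc12 had 62 and 46.2 CPM in ectoderm, against 0.0872 and 0 CPM in mesoderm, a ratio of 1092 (95% counting interval 302 to 9027). Hoxc10 had 49.2 and 33.6 CPM in ectoderm, against 0 and 0 CPM in mesoderm, at least 562-fold higher in ectoderm, and Hoxc9 had 20.3 and 19.5 CPM in ectoderm, against 0 and 0 CPM in mesoderm, at least 262-fold higher. Toward the other end of the cluster, Hoxc8 had 4.99 and 11.54 CPM in ectoderm, against 0 and 0 CPM in mesoderm, Hoxc5 had 2.15 and 7.19 CPM in ectoderm, against 0 and 0.061 CPM in mesoderm and Hoxc4 had 5.31 and 11.7 CPM in ectoderm, against 0.174 and 0 CPM in mesoderm. For these 3 genes replicate 2 of ectoderm stood above replicate 1, and the mesoderm libraries held at most 0.174 CPM.

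Most Hoxa and Hoxd genes were lower in ectoderm. Of 11 Hoxa genes 9 were lower and 1 higher, with a median log2 difference of −3.91. The 1 higher gene also passed beyond a fold of 2 and was called without the replicate block. Of the 9 Hoxd genes with Evx2 8 of 10 were lower and none higher, with a median of −4.77. Hoxd13 had 17.4 and 25.2 CPM in ectoderm, against 607 and 1042 CPM in mesoderm, a log2 difference of −5.25 ± 0.57 (SE, adjusted p = 3.03e-05). Hoxa13, its partner in digit patterning, had 6.22 and 6.13 CPM in ectoderm, against 243 and 208 CPM in mesoderm, a log2 difference of −5.19 ± 0.57 (SE, adjusted p = 3.13e-05). Hoxd12 had 7.5 and 7.58 CPM in ectoderm, against 257 and 401 CPM in mesoderm, a log2 difference of −5.40 ± 0.58 (SE, adjusted p = 2.68e-05). Hoxd1 and Hoxd3, at no more than 0.244 CPM in any library, did not pass, nor did Hoxa4. The sources used here do not say whether the authors counted reads by strand, so reads of these genes and of antisense RNAs in the clusters cannot be told apart.

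**Figure D3:**
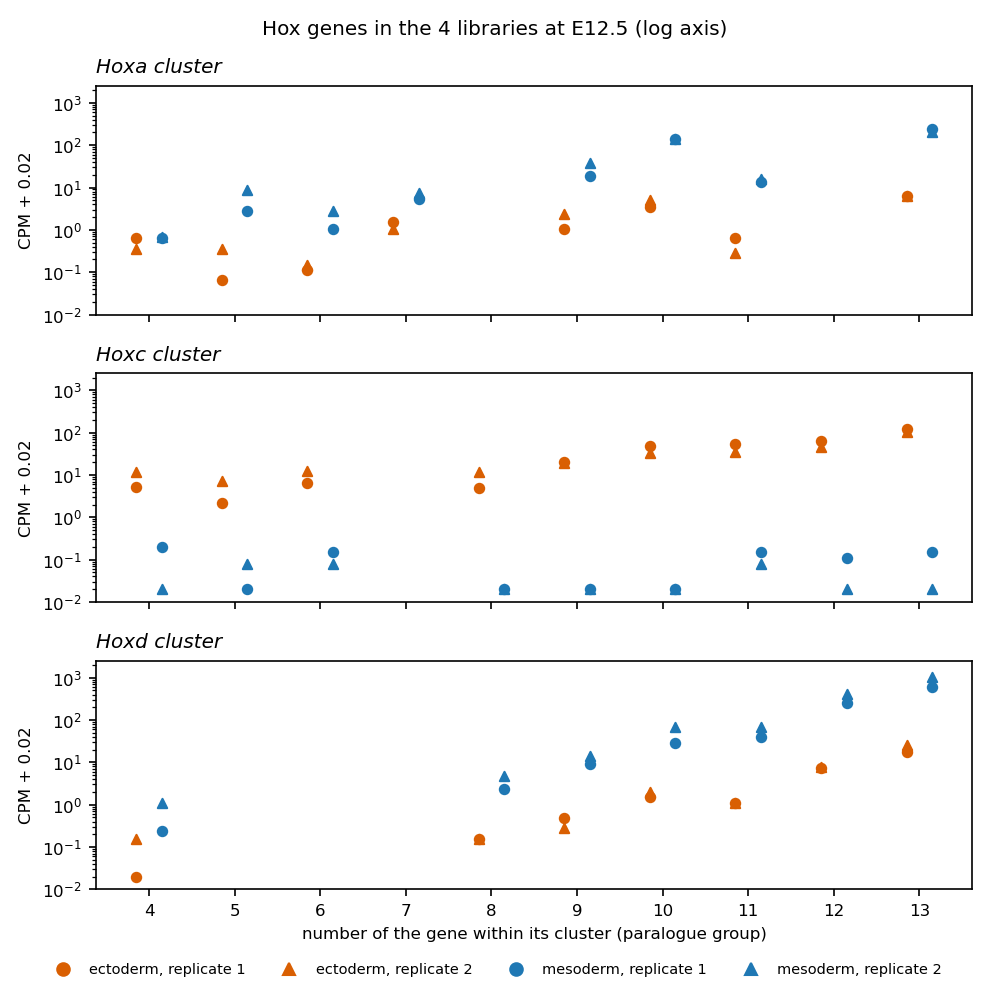
CPM plus 0.02 (vertical log axes) of the Hoxc genes, and of the Hoxa and Hoxd genes over the same range of numbers, by their number in the cluster, in ectoderm (orange) and mesoderm (blue) at E12.5, with circles for replicate 1 and triangles for replicate 2. In the Hoxc panel the ectoderm points lie above the mesoderm points for all 9 genes, and in the Hoxa and Hoxd panels the mesoderm points lie above for the higher-numbered genes.

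Of 36 tested transcription factors of limb mesenchyme 28 were lower in ectoderm and 4 higher, beside 21.7% and 23.9% of all tested genes. Their median log2 difference was −4.29. Prrx1, which marks limb mesenchyme, had 19.4 and 19.4 CPM in ectoderm, against 604 and 637 CPM in mesoderm, a log2 difference of −5.00 ± 0.42 (SE, adjusted p = 4.77e-06). Tbx5, the forelimb identity factor, had 4.58 and 5.08 CPM in ectoderm, against 188 and 146 CPM in mesoderm, a log2 difference of −5.12 ± 0.48 (SE, adjusted p = 9.45e-06). Lhx9 and Lhx2, which answer to the ridge, had log2 differences of −5.16 ± 0.65 (SE) and −4.95 ± 0.72 (SE). Twist1 had 16.2 and 13.2 CPM in ectoderm, against 359 and 250 CPM in mesoderm, a log2 difference of −4.36 ± 0.47 (SE, adjusted p = 2.66e-05). Pax9, an anterior marker, had 0.183 and 0.132 CPM in ectoderm, against 9.98 and 14.6 CPM in mesoderm, a log2 difference of −6.14 ± 0.51 (SE, adjusted p = 8.21e-06). Hand2, a posterior one, had 2.01 and 5.14 CPM in ectoderm, against 94.3 and 101 CPM in mesoderm, a log2 difference of −4.87 ± 0.46 (SE, adjusted p = 1.08e-05). The genes higher in ectoderm included Meis1, Meis2 and Meox1. Meis2, a homeobox factor of the proximal limb in mesoderm, had 156 and 154 CPM in ectoderm, against 0.654 and 0.854 CPM in mesoderm, a log2 difference of 7.70 ± 0.22 (SE, adjusted p = 9.84e-09). Meis1 had 56.9 and 72.6 CPM in ectoderm, against 0.349 and 0.732 CPM in mesoderm, a log2 difference of 6.94 ± 0.30 (SE, adjusted p = 5.06e-08). Meox1 had 4.62 and 5.28 CPM in ectoderm, against 2.13 and 1.34 CPM in mesoderm, a log2 difference of 1.47 ± 0.29 (SE, adjusted p = 0.00166). Tbx3, Sall1 and Snai2, whose layers overlapped, did not pass, and Foxd1 had no count in these 4 libraries.

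Of 28 listed cartilage genes 23 were tested. In ectoderm 17 were lower and 2 higher, beside 21.7% and 23.9% of all tested genes. Their median log2 difference was −2.63. Sox9, the master factor of cartilage, had 24.5 and 24.8 CPM in ectoderm, against 378 and 253 CPM in mesoderm, a log2 difference of −3.65 ± 0.35 (SE, adjusted p = 1.28e-05). Its partner Sox5 had 5.9 and 9.37 CPM in ectoderm, against 70 and 100 CPM in mesoderm, a log2 difference of −3.49 ± 0.15 (SE, adjusted p = 4.74e-08), whereas Sox6 had 37.3 and 45 CPM in ectoderm, against 39.2 and 58 CPM in mesoderm and did not pass (adjusted p = 0.414). Col9a1 had 5.76 and 4.55 CPM in ectoderm, against 242 and 206 CPM in mesoderm, a log2 difference of −5.44 ± 0.15 (SE, adjusted p = 9.33e-09). Pth1r, a receptor of cartilage and bone, had 4.12 and 2.18 CPM in ectoderm, against 141 and 90.6 CPM in mesoderm, a log2 difference of −5.20 ± 0.47 (SE, adjusted p = 8.34e-06). Col2a1, the main collagen of cartilage, had 476 and 463 CPM in ectoderm, against 549.7 and 273 CPM in mesoderm. Its layers overlapped, and the difference of 0.27 ± 0.30 (SE, adjusted p = 0.488) did not pass. Hapln1, a link protein of matrix, had 24.9 and 50.7 CPM in ectoderm, against 5.93 and 7.14 CPM in mesoderm and was higher in ectoderm by 2.45 ± 0.18 (SE, adjusted p = 1.75e-06). Matrix of mature cartilage was low: Acan had 0.412 and 0.33 CPM in ectoderm, against 1.52 and 0.976 CPM in mesoderm, not called without the replicate block (adjusted p = 0.088).

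Joint and tendon genes lay mostly in mesoderm. Of 15 tested joint genes 10 were lower in ectoderm and 1 higher (Wnt4), and of 23 tested tendon and connective tissue genes 14 were lower and 4 higher. The shares of all tested genes were 21.7% lower and 23.9% higher. Gdf5, the signal of the joint interzone, had 0.869 and 0.594 CPM in ectoderm, against 87.1 and 26.9 CPM in mesoderm, a log2 difference of −6.25 ± 0.37 (SE, adjusted p = 3.77e-07). Creb5 had 1.14 and 1.78 CPM in ectoderm, against 64.9 and 93.4 CPM in mesoderm, a log2 difference of −5.76 ± 0.23 (SE, adjusted p = 2.8e-08). Erg had 0.686 and 1.72 CPM in ectoderm, against 31.3 and 41.8 CPM in mesoderm, a log2 difference of −5.00 ± 0.27 (SE, adjusted p = 1.71e-07), and it is also a gene of endothelium. Col1a1 had 64.2 and 33.6 CPM in ectoderm, against 898 and 191 CPM in mesoderm, a log2 difference of −3.19 ± 0.27 (SE, adjusted p = 4.39e-06). Col6a3 had 9.52 and 4.22 CPM in ectoderm, against 176 and 65 CPM in mesoderm, a log2 difference of −4.10 ± 0.39 (SE, adjusted p = 1.11e-05). Replicate 1 of mesoderm stood several-fold above replicate 2 for Col1a1, and both stood above both ectoderm libraries. Without mesoderm replicate 1 and the batch term its log2 difference was −1.97 and was not called. Scx, the tendon factor, had 1.37 and 0.528 CPM in ectoderm, against 7.19 and 4.51 CPM in mesoderm, a log2 difference of −2.64 ± 0.32 (SE, adjusted p = 5.92e-05). Fmod, a small matrix proteoglycan known from tendon, had 238 and 140.3 CPM in ectoderm, against 4.05 and 0.915 CPM in mesoderm, higher in ectoderm by 6.30 ± 0.34 (SE, adjusted p = 1.95e-07). Dcn, a related proteoglycan, had 25.2 and 10.7 CPM in ectoderm, against 1.18 and 0.488 CPM in mesoderm, higher by 4.42 ± 0.45 (SE, adjusted p = 1.85e-05).

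Retinoic acid enzymes were sorted by layer. Of 24 listed genes of this pathway and the interdigit 23 were tested. In ectoderm 6 were higher and 13 lower, beside 23.9% and 21.7% of all tested genes. Aldh1a2 (chromosome 9, 71215788 to 71296243, plus strand), which makes retinoic acid, had 0.732 and 0.989 CPM in ectoderm, against 264 and 46.5 CPM in mesoderm. Its mesoderm replicates were several-fold apart, and both stood far above ectoderm, with a log2 difference of −7.46 ± 0.44 (SE, adjusted p = 8.67e-07). The 3 breakdown enzymes did not share a layer. Cyp26a1 had 79.6 and 115 CPM in ectoderm, against 0 and 0.122 CPM in mesoderm, a ratio of 1847 (95% counting interval 511 to 15260), and Cyp26c1 had 28.4 and 17.7 CPM in ectoderm, against 0 and 0.061 CPM in mesoderm, a ratio of 945 (95% counting interval 169 to 37360). Cyp26b1 had 39 and 34.2 CPM in ectoderm, against 609.8 and 469 CPM in mesoderm, a log2 difference of −3.88 ± 0.23 (SE, adjusted p = 4.1e-07). Crabp2, which carries retinoic acid to its receptors, had 17.8 and 11.2 CPM in ectoderm, against 275 and 156 CPM in mesoderm, a log2 difference of −3.88 ± 0.25 (SE, adjusted p = 6.01e-07). The receptor Rarb, itself induced by retinoic acid, had 0.961 and 1.19 CPM in ectoderm, against 8.5 and 2.44 CPM in mesoderm, a log2 difference of −2.32 ± 0.40 (SE, adjusted p = 0.000723), or −1.04 and not called without replicate 1 of either layer, and Rarg had 206 and 130.2 CPM in ectoderm, against 403 and 257 CPM in mesoderm, not called without the replicate block (adjusted p = 0.0843).

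Genes of vessels and blood were found mainly in the mesoderm libraries. All 18 listed endothelial genes were lower in ectoderm, with a median log2 difference of −6.08, and their summed level was 32.8 and 19.5 CPM in ectoderm, against 1002 and 806 CPM in mesoderm. Cdh5, the cadherin of endothelium, had 2.56 and 1.12 CPM in ectoderm, against 197 and 155 CPM in mesoderm, a log2 difference of −6.56 ± 0.35 (SE, adjusted p = 1.71e-07). Sox17, a factor of arteries, had no count in ectoderm, with 0 and 0 CPM in ectoderm, against 4.18 and 3.54 CPM in mesoderm. All 13 tested erythroid genes of 15 listed were lower, and their summed level was 48 and 13.8 CPM in ectoderm, against 3443 and 2441 CPM in mesoderm. Hbb-y, an embryonic globin, had 23.6 and 8.11 CPM in ectoderm, against 1929 and 1451 CPM in mesoderm, a log2 difference of −6.85 ± 0.79 (SE, adjusted p = 4.63e-05). Hba-a1 had 9.38 and 1.39 CPM in ectoderm, against 662 and 289 CPM in mesoderm, and it shares reads with Hba-a2, which had almost no counts. Gata1 had no count in ectoderm.

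Macrophage genes were lower in ectoderm for 15 of 16 tested genes, with a summed level of 6.31 and 5.28 CPM in ectoderm, against 246 and 101 CPM in mesoderm. Csf1r, their growth factor receptor, had 0.961 and 0.462 CPM in ectoderm, against 44.5 and 17.6 CPM in mesoderm, a log2 difference of −5.43 ± 0.47 (SE, adjusted p = 6.03e-06). The complement gene C1qb had 0.183 and 0 CPM in ectoderm, against 19 and 6.65 CPM in mesoderm, a log2 difference of −6.97 ± 0.65 (SE, adjusted p = 9.57e-06). Muscle genes were close to absent: the summed level of 18 was 2.56 and 3.89 CPM in ectoderm, against 4.97 and 9.7 CPM in mesoderm, and Myf5 had no count in any of the 4 libraries. Nerve and Schwann cell genes summed to 244 and 256 CPM in ectoderm, against 264 and 174 CPM in mesoderm. In ectoderm that sum was mostly Erbb3, which epidermis also expresses, with 177 and 186 CPM in ectoderm, against 12.2 and 17.1 CPM in mesoderm, while the glial factor Sox10 had 0.0457 and 0 CPM in ectoderm, against 2.22 and 0.854 CPM in mesoderm. In mesoderm the nerve and Schwann cell sum was mostly Ngfr, with a mean of 154.9 CPM there and 12.63 CPM in ectoderm. Melanoblast genes summed to 36.9 and 30 CPM in ectoderm, against 62.8 and 65.2 CPM in mesoderm. In both layers most of the melanoblast sum was a single gene, Kit, whose levels are given above. Dct, an enzyme of the pigment pathway, had 13.1 and 8.24 CPM in ectoderm, against 2.22 and 2.07 CPM in mesoderm, a log2 difference of 2.29 ± 0.33 (SE, adjusted p = 0.000239), whereas Mitf had 0.869 and 0.659 CPM in ectoderm, against 4.84 and 6.22 CPM in mesoderm, a log2 difference of −2.80 ± 0.39 (SE, adjusted p = 0.000181).

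**Figure D4:**
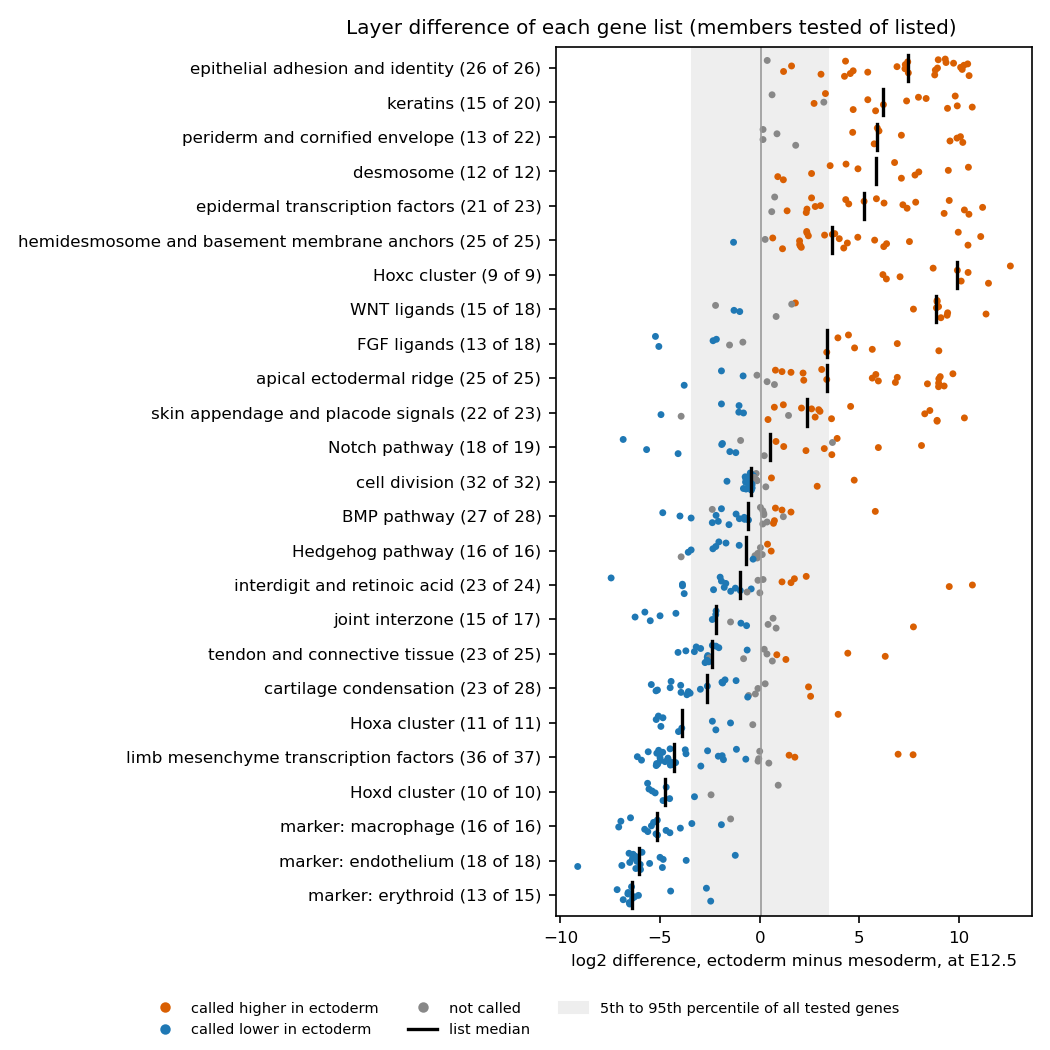
Log2 difference, ectoderm minus mesoderm, of the tested genes of 25 lists at E12.5 (points; orange called higher in ectoderm, blue called lower, grey not called), with each list's median as a black bar and the 5th to 95th percentile of all tested genes as a grey band. Medians of the epithelial lists lie above 3.42, the upper edge of the band, and those of vessel, blood, macrophage, mesenchyme factor, Hoxa and Hoxd lists below −3.39, and fitted values of genes without counts in 1 layer depend on the prior count.

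Cell division genes differed by little. Of 32 tested 24 were lower in ectoderm and 3 higher, beside 21.7% and 23.9% of all tested genes. The median log2 difference of the list was −0.43. Without the replicate block only 8 were lower and 2 higher, and beyond a fold of 2 only Cdkn1c was lower. Top2a had 693 and 754 CPM in ectoderm, against 1188 and 1140 CPM in mesoderm, with no overlap, a log2 difference of −0.69 ± 0.10 (SE, adjusted p = 0.000174). Mki67 had 341 and 622 CPM in ectoderm, against 615 and 681 CPM in mesoderm, and its layers overlapped, with a call at adjusted p = 0.031 that was not made without the replicate block (adjusted p = 0.284). The inhibitor gene Cdkn1a, known for cell cycle arrest, went the other way with 76.2 and 53.1 CPM in ectoderm, against 3.31 and 1.52 CPM in mesoderm, a log2 difference of 4.74 ± 0.30 (SE, adjusted p = 5.77e-07). Another inhibitor, Cdkn1c, had 163 and 109 CPM in ectoderm, against 511 and 338 CPM in mesoderm, not called without the replicate block (adjusted p = 0.0518). Myc had 61.5 and 35.1 CPM in ectoderm, against 9.28 and 4.09 CPM in mesoderm, a log2 difference of 2.88 ± 0.19 (SE, adjusted p = 8.67e-07).

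Genes of the response to tissue dissociation, which trypsin and handling can induce, were higher in ectoderm in 6 of 20 tested cases and lower in 2, beside 23.9% and 21.7% of all tested genes. Without the replicate block 4 were higher and 2 lower. Jun had 82.9 and 55.5 CPM in ectoderm, against 32.2 and 21.6 CPM in mesoderm, a log2 difference of 1.36 ± 0.11 (SE, adjusted p = 4.69e-06). Hspa1b, whose reads can be shared with Hspa1a, had 13.6 and 5.93 CPM in ectoderm, against 1.31 and 1.46 CPM in mesoderm, a log2 difference of 2.75 ± 0.43 (SE, adjusted p = 0.000403). Fos had 2.29 and 1.52 CPM in ectoderm, against 1.7 and 0.915 CPM in mesoderm, Dusp1 had 12.2 and 9.43 CPM in ectoderm, against 14.5 and 14.9 CPM in mesoderm, and neither passed (adjusted p = 0.12 and adjusted p = 0.0729). Klf2, which is also a gene of endothelium, had 0.137 and 0.0659 CPM in ectoderm, against 7.5 and 3.35 CPM in mesoderm, a log2 difference of −5.65 ± 0.59 (SE, adjusted p = 2.32e-05). Their part in other results was not tested.

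Among the genes with the largest differences and at least 10 CPM in the higher layer, several belong to none of the groups above. Anxa8, an annexin, had 109 and 42.4 CPM in ectoderm, against 0 and 0 CPM in mesoderm and was at least 1069-fold higher in ectoderm. Otx1, a homeobox gene known from the brain, had 116 and 97.3 CPM in ectoderm, against 0.0436 and 0 CPM in mesoderm, a ratio of 4261 (95% counting interval 764 to 168400). Irx4, an Iroquois homeobox gene known from the heart, had 23.6 and 21 CPM in ectoderm, against 0 and 0 CPM in mesoderm, at least 296-fold higher. Macc1 had 22.5 and 33.7 CPM in ectoderm, against 0 and 0 CPM in mesoderm, at least 355-fold higher, Aldh3b2 was at least 237-fold higher and AU018091 was at least 216-fold higher. On the mesoderm side Adam12, a metalloprotease of mesenchyme, had 0.0457 and 0.132 CPM in ectoderm, against 12.6 and 11.8 CPM in mesoderm, a ratio of mesoderm to ectoderm of 152 (95% counting interval 51.6 to 739). Hsd3b6, of a family of near-identical steroid enzymes that can share reads, had 0.0915 and 0 CPM in ectoderm, against 22 and 8.05 CPM in mesoderm, a ratio of mesoderm to ectoderm of 299.7 (95% counting interval 82.6 to 2480). Kcne3 had a ratio of mesoderm to ectoderm of 138 (95% counting interval 46.9 to 672). Mmrn1, Sparcl1, Cd93 and Rhoj, all known from vessels, had log2 differences of −7.29 ± 0.43 (SE), −7.26 ± 0.37 (SE), −7.19 ± 0.34 (SE) and −7.16 ± 0.48 (SE).

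The called genes with the highest deposited FPKM differed by much less. In ectoderm these were the translation genes Eef1a1, Rplp1, Rplp0, Rps15 and Rpl32, with log2 differences of 0.28, 0.35, 0.40, 0.32 and 0.58. Eef1a1 had 13510 and 8857 CPM in ectoderm, against 11910 and 6815 CPM in mesoderm, and replicates of a layer differed more than the layers did. None of these 5 was called without the replicate block, with adjusted p from 0.333 to 0.782. Lower in ectoderm were Hbb-y and 4 genes with differences of −0.41 to −0.27: Actb and Tubb5 of the cytoskeleton, Cfl1, which cuts actin filaments, and the growth factor gene Mdk. None of these 4 was called without the block either. Genes of this kind have many processed copies in the genome, with which reads can be shared.

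The last comparison asked whether the layer difference at E12.5 was that of the earlier days. For 14697 genes with counts in both layers at every stage, the E12.5 difference was set against the mean of those at E9.5, E10.5 and E11.5, in the same fit. It was more positive for 1182 genes (8.04%) and more negative for 1602 (10.9%), and without the replicate block for 198 and 486 genes. Marker shares also differed between stages. At E9.5 the median mesenchyme factor stood in ectoderm at 22.1% and 23.7% of its mesoderm level. That share was 15.8% and 17.3% in the E10.5 libraries, 44.4% and 10.3% in those of E11.5, and 4.75% and 5.83% in those of E12.5. The median epithelial gene stood in mesoderm at 0.681% to 2.72% of its ectoderm level at the earlier stages, against 0.471% and 0.346% at E12.5. The part of these shares in the stage differences was not tested. Without both layers of replicate 1 at E11.5, the batch with the 44.4%, 3311 genes were called.

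Changes with stage within a layer were not tested here, and levels by stage are given as a description. Of 22 tested cartilage genes 13 had a more negative difference at E12.5 and none a more positive one. The same held for 13 of 20 genes of retinoic acid and the interdigit, with 1 more positive, for 17 of 35 mesenchyme factors, with 3, and for 13 of 26 BMP pathway genes, with none. The shares of all genes tested for the change were 10.9% more negative and 8.04% more positive. Col2a1 was lower in ectoderm and higher in mesoderm at E12.5 than in any earlier library. Its ectoderm libraries had 1529 and 989.8 CPM at E9.5, 1933 and 1181 CPM at E10.5, 715 and 775 CPM at E11.5 and 476 and 463 CPM at E12.5. Its mesoderm libraries had 54.9 and 34.1 CPM at E9.5, 40.9 and 20.3 CPM at E10.5, 120.2 and 44.7 CPM at E11.5 and 549.7 and 273 CPM at E12.5. The earlier days thus had more Col2a1 in ectoderm, and at E12.5 the layers overlapped, a change in the difference of −4.35 ± 0.37 on the log2 scale (SE, adjusted p = 8.23e-05). Col9a1 in mesoderm had 13.8 and 10.3 CPM at E9.5, 56.8 and 37.7 CPM at E10.5, 147 and 63.4 CPM at E11.5 and 242 and 206 CPM at E12.5, and its difference changed by −3.28 ± 0.17 on the log2 scale (SE, adjusted p = 8.17e-06). Col9a2 had a change of −5.58 ± 0.30 on the log2 scale (SE, adjusted p = 8.48e-06), and Matn4, a matrilin of cartilage, had one of −8.71 ± 0.59 on the log2 scale (SE, adjusted p = 3.04e-05). Matn4 had 0.0887 and 0.0666 CPM in mesoderm at E11.5 and 14.7 and 5.55 CPM at E12.5. Gdf5 in mesoderm had 0.0955 and 0.123 CPM at E9.5, 4.62 and 2.66 CPM at E10.5, 13.8 and 6.86 CPM at E11.5 and 87.1 and 26.9 CPM at E12.5, a change of −5.25 ± 0.53 on the log2 scale (SE, adjusted p = 0.000191).

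Of 23 ridge genes tested for the change, 8 had a more negative difference at E12.5 and 7 a more positive one. The shares of all genes tested for it were 10.9% and 8.04%. Among the ridge genes with a more negative difference were Dlx5, Dlx6 and Bmp2. Dlx5 in mesoderm had 0.382 and 0.369 CPM at E9.5, 12.8 and 15.6 CPM at E10.5, 36.6 and 23.8 CPM at E11.5 and 89.2 and 74.9 CPM at E12.5, while ectoderm stayed between 59.6 and 91.7 CPM. Its layer difference changed by −3.87 ± 0.20 on the log2 scale (SE, adjusted p = 8.17e-06), and Dlx6, its neighbour, changed by −5.49 ± 0.39 on the log2 scale (SE, adjusted p = 3.04e-05). Bmp2 in ectoderm had 34.1 and 23.5 CPM at E9.5, 62.4 and 43.4 CPM at E10.5, 21.6 and 27.1 CPM at E11.5 and 17.8 and 10.4 CPM at E12.5. Bmp2 in mesoderm had 1.19 and 1.97 CPM at E9.5, 10.4 and 12.6 CPM at E10.5, 34.8 and 32.3 CPM at E11.5 and 61.1 and 44.3 CPM at E12.5, and the difference changed by −3.90 ± 0.28 on the log2 scale (SE, adjusted p = 3.04e-05). Cdh3 in ectoderm had 456 and 392 CPM at E9.5, 828 and 688 CPM at E10.5, 741 and 787 CPM at E11.5 and 713 and 708 CPM at E12.5. In mesoderm the same gene had 31 and 20.5 CPM at E9.5, 256 and 214 CPM at E10.5, 486 and 324 CPM at E11.5 and 685 and 438 CPM at E12.5, a change in the difference of −1.85 ± 0.20 on the log2 scale (SE, adjusted p = 0.000304). Cyp26b1 in ectoderm had 441 and 364 CPM at E9.5, 428 and 342 CPM at E10.5, 280 and 159.5 CPM at E11.5 and 39 and 34.2 CPM at E12.5. In mesoderm Cyp26b1 had 29.7 and 23.3 CPM at E9.5, 958 and 830.1 CPM at E10.5, 491 and 646 CPM at E11.5 and 609.8 and 469 CPM at E12.5, a change in the difference of −4.31 ± 0.26 on the log2 scale (SE, adjusted p = 2.19e-05).

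Other genes had a more positive difference at E12.5. Meis2 in ectoderm had 233 and 229.7 CPM at E9.5, 114 and 93.8 CPM at E10.5, 79.3 and 94.8 CPM at E11.5 and 156 and 154 CPM at E12.5. In mesoderm Meis2 had 239 and 279 CPM at E9.5, 4.35 and 6.14 CPM at E10.5, 1.15 and 1.33 CPM at E11.5 and 0.654 and 0.854 CPM at E12.5. Both layers thus held similar levels at E9.5, and from E10.5 on the mesoderm level was far below that of ectoderm, a change of 4.26 ± 0.27 on the log2 scale (SE, adjusted p = 2.44e-05). Col17a1 in ectoderm had 40.2 and 24.1 CPM at E9.5, 114 and 121 CPM at E10.5, 591 and 359.6 CPM at E11.5 and 1261 and 1091 CPM at E12.5. In mesoderm Col17a1 had 0.287 and 0.553 CPM at E9.5 and 2.07 and 2.25 CPM at E10.5. It had 13.8 and 5.79 CPM there at E11.5 and 1.35 and 0.976 CPM at E12.5. Its layer difference changed by 4.06 ± 0.33 on the log2 scale (SE, adjusted p = 6.21e-05). Krt15 had 4.56 and 4.3 CPM in ectoderm at E11.5 and 118 and 19.8 CPM at E12.5, a change of 5.27 ± 0.48 on the log2 scale (SE, adjusted p = 0.000112). Npr3, a clearance receptor for natriuretic peptides, had 2.47 and 3.04 CPM in ectoderm at E11.5 and 46.2 and 28.8 CPM at E12.5, a change of 5.01 ± 0.41 on the log2 scale (SE, adjusted p = 6.83e-05). Ambn, an enamel matrix gene in teeth, had 0.211 and 0.181 CPM at E9.5, 2.84 and 3.81 CPM at E10.5, 60.6 and 14.5 CPM at E11.5 and 190.5 and 54.3 CPM at E12.5 in ectoderm. Its change of 5.90 ± 1.26 on the log2 scale (SE, adjusted p = 0.00997) was not called without the replicate block (adjusted p = 0.178). Cyp26a1 in ectoderm had 7.6 and 6.03 CPM at E9.5, 36.6 and 44.6 CPM at E10.5, 67.3 and 97.4 CPM at E11.5 and 79.6 and 115 CPM at E12.5. In mesoderm Cyp26a1 had 0.907 and 0.676 CPM at E9.5 and 0.518 and 0.273 CPM at E10.5. It had 2.17 and 0.999 CPM there at E11.5 and 0 and 0.122 CPM at E12.5. Its layer difference changed by 5.61 ± 0.78 on the log2 scale (SE, adjusted p = 0.00105), with levels in both layers entering the change. For Cyp26a1, Snx31, Gpa33, Scel and Zfp750 the E12.5 mesoderm libraries held 1 to 3 counts, so the fitted change depends on the prior count. The same holds for Slc35d3, with 1 count in ectoderm. Low levels at earlier stages act in the same way. Matn4 had 0.0345 and 0 CPM in mesoderm at E10.5, and Dlx6 had 0 and 0.123 CPM there at E9.5. Ambn had 0 CPM in mesoderm replicate 2 at every stage. The fitted changes of Matn4, Dlx6 and Ambn thus also depend on the prior count.

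Ectoderm levels of Foxj1, Mmp28 and Slc35d3 were lower at E12.5 than at E9.5. Foxj1, the factor of motile cilia, had 32.4 and 24.9 CPM at E9.5, 10.2 and 4.94 CPM at E10.5, 1.79 and 2.12 CPM at E11.5 and 0.275 and 0.528 CPM at E12.5 in ectoderm. At E12.5 its level in mesoderm was 0.654 and 0.854 CPM, the layer difference did not pass, and the change was −5.95 ± 0.45 on the log2 scale (SE, adjusted p = 3.96e-05). Mmp28, a matrix protease, had 12.8 and 10 CPM at E9.5, 3.73 and 2.269 CPM at E10.5, 0.17 and 0.331 CPM at E11.5 and 0.458 and 0.0659 CPM at E12.5 in ectoderm, against 1.34 and 1.29 CPM at E9.5, 3.76 and 2.93 CPM at E10.5, 10.1 and 5.26 CPM at E11.5 and 15.7 and 14.3 CPM at E12.5 in mesoderm, a change of −5.00 ± 0.56 on the log2 scale (SE, adjusted p = 0.000347). Slc35d3 had 5.06 and 3.56 CPM at E9.5, 20.4 and 9.88 CPM at E10.5, 0.128 and 1.72 CPM at E11.5 and 0 and 0.0659 CPM at E12.5 in ectoderm, and its change of −5.42 ± 1.61 on the log2 scale (SE, adjusted p = 0.0406) was not called without the replicate block (adjusted p = 0.0919). Cx3cr1, a chemokine receptor of macrophages, had 0.287 and 0.184 CPM at E9.5 and 3.76 and 6.89 CPM at E10.5 in mesoderm. It had 13.5 and 9.39 CPM there at E11.5 and 24.6 and 12.1 CPM at E12.5. In ectoderm Cx3cr1 had 4.86 and 0.662 CPM at E11.5 and 0.137 and 0.132 CPM at E12.5. Its layer difference changed by −4.79 ± 1.18 on the log2 scale (SE, adjusted p = 0.0189). Ectoderm replicate 1 of E11.5 enters this change, and the median macrophage gene stood there at 42.6% of its mesoderm level. Of 12 macrophage genes tested for the change 1 was more negative, beside 10.9% of all genes tested for it.

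**Figure D5:**
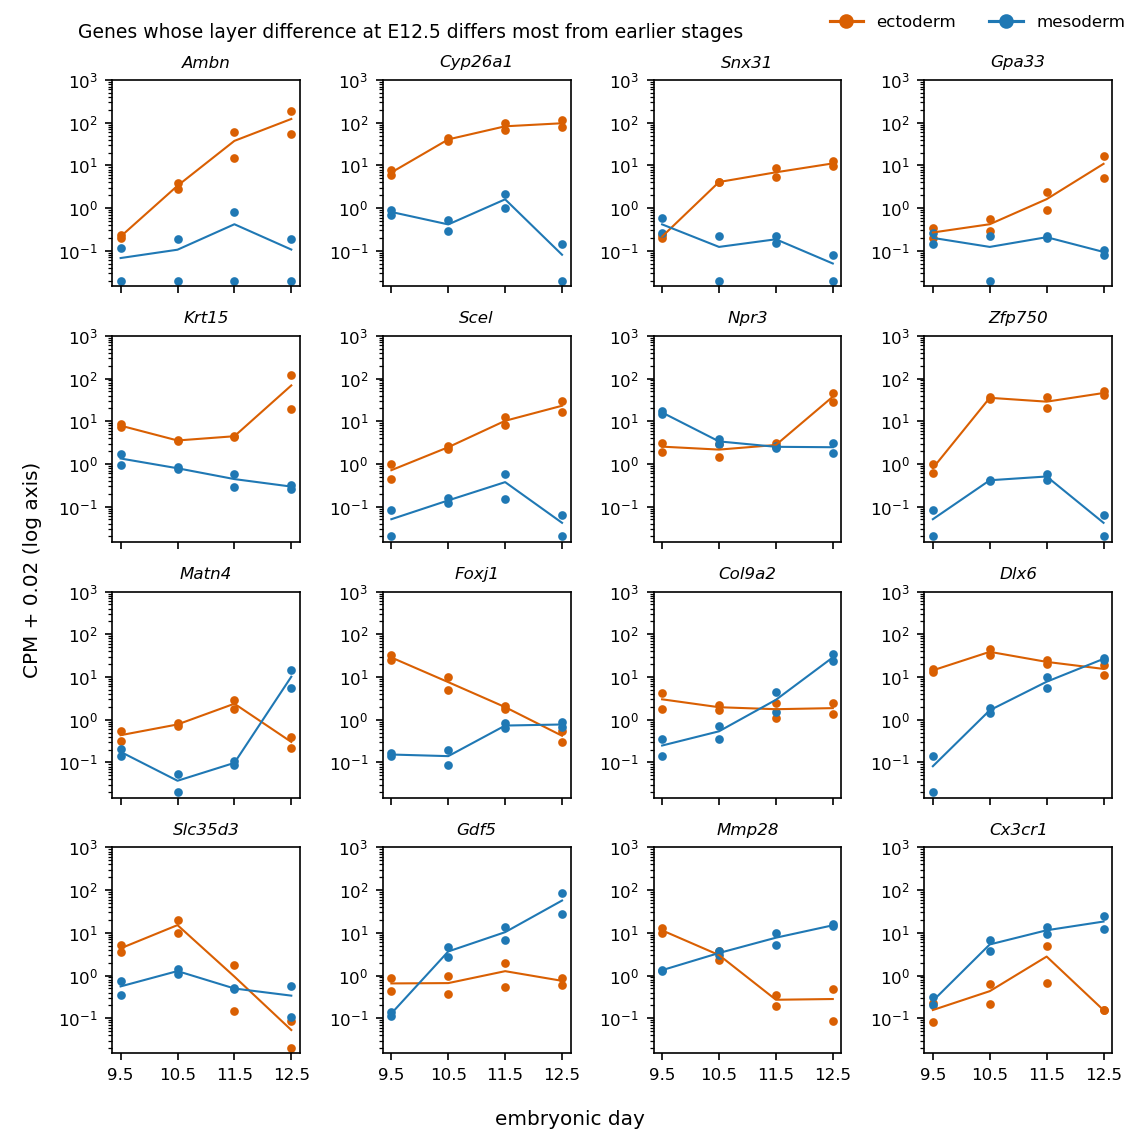
CPM plus 0.02 (vertical log axes) by embryonic day of 16 genes, 8 in each direction. They had the largest change between the E12.5 layer difference and the mean of the earlier ones. Only called genes with a mean of at least 10 CPM in a layer were ranked, at E12.5 or, for more negative changes, at any stage. Points are libraries (2 per layer and day), lines join the layer means, and ectoderm is orange and mesoderm blue, so that the E12.5 points of Krt15 and Npr3 lie highest in ectoderm and those of Matn4 and Col9a2 highest in mesoderm.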

How the data were processed

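Gene counts and FPKM values of 16 libraries, 2 per layer and stage, were used as the authors deposited them. The deposited counts are whole numbers per Ensembl gene, not normalized. The deposited FPKM values are scaled by gene length and library, and served only to choose the most abundant genes. Per the submitters' processing notes, the tools were STAR 2.6.0c, with cutadapt 1.16 and bedtools 2.27.1, and also Cufflinks 2.2.1, on build mm10. The counting tool and its strand setting are not given in the sources used here. Per the labels, RNA of replicate 1 was purified with the RNeasy Plus Mini Kit and RNA of replicate 2 with the RNeasy Mini Kit, so kit and embryo batch cannot be told apart.

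Symbols came from a table that held 53740 of the 53800 gene IDs. Counts were fitted in edgeR 4.0.16 under R 4.3.3 (TMM scaling, filterByExpr by group, which left 15501 of 28342 genes with a count). The quasi-likelihood F test had 1 term for each of 8 embryo batches and 1 layer difference per stage, with 4 residual degrees of freedom. Each gene's spread is also drawn toward that of other genes in this test, so the p-values do not rest on these 4 alone. All 16 libraries entered, so that the 4 stages share an estimate of the spread. P-values were Benjamini-Hochberg adjusted over the genes tested, with calls under 0.05. Differences beyond a fold of 2 were tested with edgeR's glmTreat. The pairing is stated in the labels. Replicate differences of ectoderm and mesoderm correlated across genes with r = 0.601 to 0.732 within a stage, and 0.695 for E12.5 (Pearson, 15501 genes, which are not independent). Between stages r was 0.473 to 0.634, so libraries with the same number also deviated together across batches. The test of the E12.5 difference against the earlier stages took the 14697 genes with a count in both layers at every stage.

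CPM use TMM-scaled library sizes. A gene with no count in a layer is given as a bound against a floor of 3 counts over that layer's 2 libraries, and a gene with 1 to 3 counts as a ratio with an exact 95% interval, both of which cover counting error only. Promoter windows and mature microRNAs are from RefSeq, GRCm38.p6, and were matched by symbol or name.

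Genes were named by a rule. It took the 10 largest differences per direction with at least 10 CPM and the same direction in both batches, the 5 called genes per direction with the highest FPKM, and the 8 largest stage differences per direction. Stage differences were ranked among called genes with a mean of at least 10 CPM in a layer. That mean was taken at E12.5 for more positive differences and at any stage for more negative ones. From each of 35 gene lists the rule took up to 6 members with the largest difference or highest level, and those that went against their list. Some genes that the rule names are not reported here. Members and lists were chosen with earlier results of these data known. The motif search and the stage series of Meis2, Dlx5, Bmp2, Cdh3, Col2a1, Col9a1, Cyp26b1 and Col17a1 were chosen after their values were seen. Alternatives were RLE scaling, other count filters, DESeq2 1.42.0, no replicate block, E12.5 alone and libraries left out.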

Additional observations from a re-analysis of the deposited data

Results flagged for a closer look

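These 24 genes were singled out because their layer difference at E12.5, ectoderm minus mesoderm, differed from the mean of the earlier stages by a test of that difference in edgeR's quasi-likelihood fit. The first 16 are the genes with the largest such change among those that reached a mean of 10 CPM in a layer. That level was asked for at E12.5 or, for more negative changes, at any stage. The other 8 were chosen after their values were seen. All values here are changes of the log2 difference. Those of genes with few counts in a layer, at E12.5 or earlier, depend on the prior count, as stated above.

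More positive at E12.5 were Ambn (5.90), Cyp26a1 (5.61), Snx31 (5.39), Gpa33 (5.33), Krt15 (5.27), Scel (5.15), Npr3 (5.01) and Zfp750 (4.92). Snx31, a sorting nexin, had 0.211 and 0.181 CPM at E9.5, 3.99 and 4.14 CPM at E10.5, 5.28 and 8.47 CPM at E11.5 and 12.4 and 9.83 CPM at E12.5 in ectoderm. Its mesoderm libraries held no more than 0.553 CPM at any stage. Gpa33, a surface antigen known from gut epithelium, had 0.317 and 0.181 CPM at E9.5, 0.532 and 0.267 CPM at E10.5, 2.34 and 0.861 CPM at E11.5 and 16.8 and 4.95 CPM at E12.5 in ectoderm, and its 2 ectoderm libraries of E12.5 lay several-fold apart. In mesoderm Gpa33 stayed at no more than 0.239 CPM. Ambn and Scel were not called without the replicate block (adjusted p = 0.178 and adjusted p = 0.0656). Leaving out both layers of E12.5 replicate 1 ended the call of Snx31 (4.12) and Gpa33 (4.40), and leaving out replicate 2 ended that of Scel (4.79) and Zfp750 (4.41).

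More negative at E12.5 were Matn4 (−8.71), Foxj1 (−5.95), Col9a2 (−5.58), Dlx6 (−5.49), Slc35d3 (−5.42), Gdf5 (−5.25), Mmp28 (−5.00) and Cx3cr1 (−4.79). Matn4, Col9a2 and Gdf5 belong to cartilage and joints, and Cx3cr1 to macrophages. Slc35d3 was not called without the replicate block (adjusted p = 0.0919). Leaving out E12.5 replicate 1 ended the call of Slc35d3 (−5.29) and Cx3cr1 (−4.16).

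The genes chosen after their values were seen were Meis2 (4.26) and Col17a1 (4.06) on the positive side. On the negative side they were Dlx5 (−3.87), Bmp2 (−3.90), Cdh3 (−1.85), Col2a1 (−4.35), Col9a1 (−3.28) and Cyp26b1 (−4.31). With E11.5 alone as the earlier stage, 7 of the 24 changes were no longer called, those of Ambn (3.78), Gpa33 (4.01), Snx31 (3.13), Slc35d3 (−3.53), Meis2 (1.58), Cdh3 (−0.57) and Mmp28 (−0.68). With E10.5 alone those of Snx31 (3.53) and Cx3cr1 (−3.33) were not called.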

How the results depend on the processing

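Under RLE scaling, no count filter, a stricter filter, DESeq2 and a fit of E12.5 alone with the replicate block, the count of genes called at E12.5 stayed within 1.5 times the 7080 reported, at 5072 to 7091. It fell to 4099 without the replicate block, to 2889 for E12.5 alone without the block and to 2752 beyond a fold of 2. Without replicate 1 of both layers it was 4553, and without replicate 2 it was 5207. Without the batch term and 1 library it was 2927 (ectoderm replicate 1), 3061 (ectoderm replicate 2), 3031 (mesoderm replicate 1) and 3329 (mesoderm replicate 2). A lone library is assumed there to vary like those of the other groups. The stage comparison, with 2784 genes, gave 684 without the replicate block, 389 with E11.5 alone as the earlier stage, 777 without replicate 1, 1995 without replicate 2 and 2000 to 3661 under its other alternatives. Of 234 tested genes named in the text, 25 lost their call without ectoderm replicate 1 and the batch term, and 5 changed direction or stood at 0. The abundant genes with small differences changed direction when 1 library was left out: the log2 difference ranged from −0.58 to 0.012 for Cfl1, −0.80 to 0.025 for Mdk, −0.70 to 0.066 for Tubb5, −0.092 to 0.71 for Eef1a1, −0.24 to 1.10 for Rplp0, −0.21 to 0.96 for Rplp1 and −0.23 to 0.93 for Rps15. For Dkk4, with few counts, it ranged from 0 to 5.36. Of the other genes called both with and without the block, Col1a1, Dct, Etv4, Evx2, Fgf9, Gli1, Hbegf, Hspa1b, Lef1, Meox1, Nog, Pdgfra, Rarb and Wif1 lost the call in at least 1 fit with samples left out, with no change of direction. Without the replicate block 405 list members were called, against 479 with it. Depth limits genes near the floor, 0.081 CPM in ectoderm and 0.0763 CPM in mesoderm.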
